A study of Mus musculus with 9 samples.

Results

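The genes described are *Parp1*, *Parp9*, *Parp10*, *Parp11*, *Parp12*, *Parp14* and *Dtx3l*, a set of antiviral ADP-ribosyltransferase genes with an E3 ubiquitin ligase gene and a housekeeping reference. They were chosen by symbol, with earlier results of these data known, and all 7 were found once each among the 52550 genes listed for an A/A library. The 6 genes other than *Parp1* are known as interferon-inducible, and *Parp1*, a nuclear sensor of DNA breaks that most cells express, served as the reference.

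The study profiled plasmacytoid dendritic cells (pDCs), the dendritic cells known for abundant type I interferon (IFN) production, sorted from the spleens of C57BL/6 mice. Each of 9 samples had been stimulated for 12 hours with R848, a synthetic TLR7/8 ligand. The genotypes concern a knock-in allele of *Ncf1*, the gene of the p47phox subunit of the phagocyte NADPH oxidase, made with CRISPR/Cas9 in zygotes, so that the allele was present in every cell type. There were 3 samples each of G/G (without the knock-in allele), G/A (heterozygous) and A/A (homozygous) pDCs. The values of A/A replicate 1 alone were read, and 8 of the 9 libraries are not analysed here. The methods describe young adult females, and whether animals were pooled is not given in the sources used here. All groups had received R848, so an unstimulated level was not part of the design. Because a single library was read, no value below has a replicate error, no genotypes were compared and no test was run.

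PARP enzymes transfer ADP-ribose from NAD+ to proteins. *Parp1* builds long chains at DNA breaks, whereas most of the interferon-inducible members add single ADP-ribose units or lack catalytic activity. Type I IFN acts through its receptor, the kinases Jak1 and Tyk2 and transcription factors that bind the interferon-stimulated response element (ISRE) of target promoters. In pDCs, the same cell can release IFN and respond to it.

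The library held 31408298 reads on the listed genes, and 17664 genes had at least 1. All 11 pDC markers on the list had reads, with a summed level of 10286 CPM (reads per 1000000 reads). Most of it came from *Irf8* at 2967, *Spib* at 2289, *Ly6d* at 1716 and *Bst2* at 1657 CPM. *Itgax* was the lowest at 38.5 CPM, and *Bst2* is also on the interferon-stimulated list used below. The marker lists differ in their number of genes. The conventional dendritic cell list summed to 1959 CPM with 6 of 7 genes detected and *Cd209a* at 0. Most of this sum came from *Ccl22* at 1347 CPM and *Fscn1* at 428 CPM, with *Zbtb46* at 106 and *Clec9a* at 73.9 CPM. The macrophage list summed to 383 CPM with all 5 detected, and most of it came from *Cd68* at 298 CPM. The neutrophil, B cell, T cell and erythroid lists each summed to between 2.93 and 24.3 CPM, with *Ly6g*, *Mpo*, *Elane*, *Pax5*, *Cd3e*, *Cd3d*, *Cd3g*, *Bcl11b* and *Hbb-bs* among the genes at 0. *S100a8* and *S100a9*, at 14.7 and 9.62 CPM, made up the neutrophil sum, and *Cd4* at 19.5 CPM made up the T cell sum. *Ncf1* itself was at 1079 CPM, and its allele cannot be read from gene totals. *Xist* was at 0 while the Y-linked genes *Ddx3y*, *Eif2s3y*, *Kdm5d* and *Uty* were at 102, 86.1, 27.0 and 19.0 CPM, so the library labelled A/A replicate 1 does not match the females described in the methods. Whether this library differs from the others in its origin was not tested. The part that other cell types play in the members' levels was not tested.

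All 6 interferon-inducible members were above *Parp1*, and together they held 85119 reads, 0.271% of those on the listed genes. Levels of different genes are set against each other mainly per length, as TPM (reads per kilobase of annotated exon, scaled to 1000000 over all genes). CPM, sums of CPM and shares of reads state how many of the reads a gene or list took, and they also depend on gene length. The median of the 6 genes was 239 TPM, beside 4.94 TPM over the 17632 genes with reads and an exon length. Their median percentile by TPM was 96.7. In a bulk library, few cells with much RNA of a gene and many cells with little cannot be told apart. The highest of the 6, *Parp12*, was 8.69 times the lowest, *Parp11*, in TPM by union exon length. By principal transcript this was 5.73 times, and by coding length *Parp12* was 5.17 times the lowest gene on that scale, *Parp14*. Intervals in this text are 95% intervals (Wilson for a level, Clopper-Pearson for a ratio). They cover counting error only, not variation between animals or libraries. Reads copied by PCR are not independent molecules, so the intervals can be too narrow even for counting error.

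**Figure D1:**
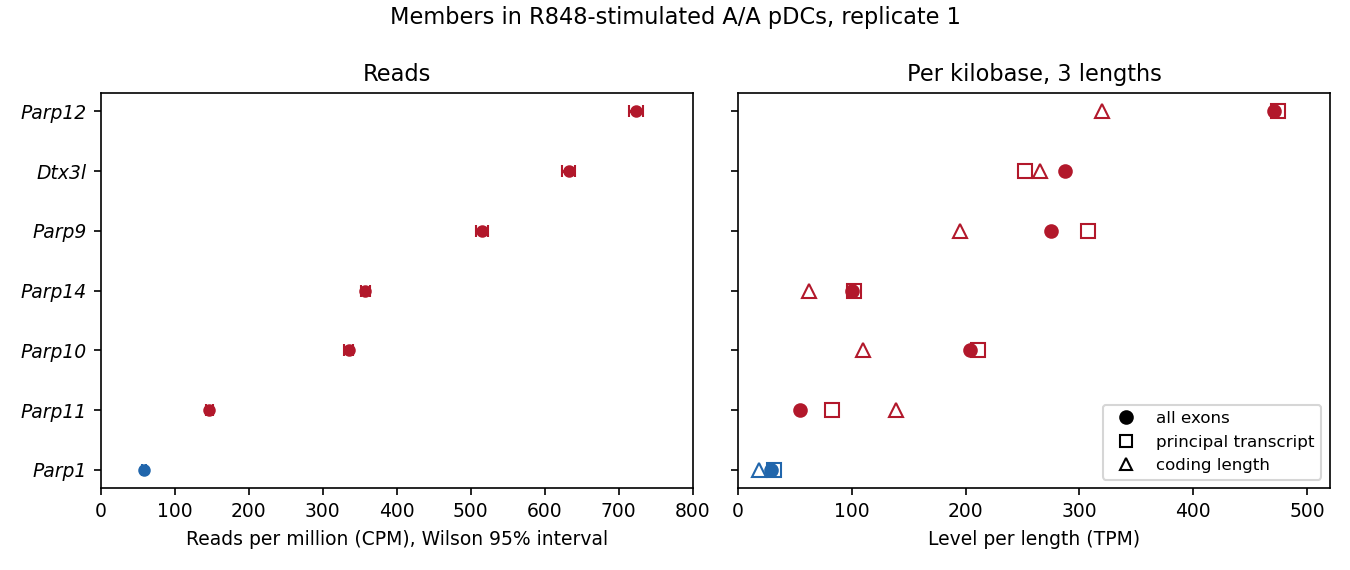
Levels of the 7 genes in A/A replicate 1, in CPM with 95% Wilson intervals (left) and in TPM by the length used (right), with *Parp1* in blue and the other 6 genes in red. *Parp12* is rightmost at 724 CPM and 471 TPM by union exon length, and *Parp1* leftmost at 58.0 CPM and 28.5 TPM.

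The reference *Parp1* (ENSMUSG00000026496.11, GRCm38 chr1:180568924-180601254, plus strand) had 1821 reads, which is 58.0 CPM with an interval of 55.4 to 60.7. Its level per length was 28.5 TPM, the 79.2 percentile of genes with reads. It was therefore not a low gene in these cells: it stood at 5.77 times the median TPM. Among 12 genes often used as housekeeping controls, whose median was 95.5 TPM, 8 were above *Parp1* and 4 below by union exon length. Those below included *Tbp* at 9.15, *Polr2a* at 15.2 and *Gusb* at 24.5 TPM. Per principal transcript 9 were above, with *Gusb* at 33.8 TPM against 31.7 TPM for *Parp1*. The reference thus sat in the lower part of that list, and every ratio to *Parp1* given next is a ratio to a gene of that level.

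*Parp12* encodes a mono-ADP-ribosyltransferase with CCCH zinc fingers, known to restrict RNA viruses. The gene (ENSMUSG00000038507.6, chr6:39086410-39118349, minus strand) had 22735 reads, 724 CPM (715 to 733) and 471 TPM. This was 16.5 times *Parp1* per exon length, with an interval of 15.8 to 17.4, and the 98.4 percentile by TPM. *Parp12* was the highest of the 7 on each scale used. It alone took 26.7% of the reads of the 6 genes. No 50-base window of its exons was shared with another gene.

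*Dtx3l* encodes an E3 ubiquitin ligase of the Deltex family that pairs with the Parp9 protein. The gene (ENSMUSG00000049502.16, chr16:35926511-35939151, minus strand) had 19862 reads, 632 CPM (624 to 641) and 287 TPM, 10.1 times *Parp1* (9.61 to 10.6). Its partner *Parp9* encodes a PARP with macrodomains, folds that bind ADP-ribose, and is known in complex with Dtx3l as an enhancer of IFN signalling. *Parp9* (ENSMUSG00000022906.15, chr16:35938470-35972605, plus strand) had 16169 reads, 515 CPM (507 to 523) and 275 TPM, 9.65 times *Parp1* (9.19 to 10.1). The partner genes lay close to each other on this scale. *Dtx3l* was 1.05 times *Parp9* per union exon length (1.02 to 1.07), which is beyond counting error if reads are taken as independent. With the length of the principal transcript in place of all exons the order turned, and *Parp9* was 1.22 times *Dtx3l* (1.19 to 1.24). Which of the partners is the more abundant therefore cannot be read from these values.

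*Parp10* and *Parp14* followed. *Parp10* encodes a mono-ADP-ribosyltransferase known to inhibit alphavirus replication. The gene (ENSMUSG00000063268.12, chr15:76231174-76243441, minus strand) had 10520 reads, 335 CPM (329 to 341) and 204 TPM, 7.15 times *Parp1* (6.80 to 7.52). *Parp14* encodes the longest protein of the set, a macrodomain-bearing mono-ADP-ribosyltransferase known as a cofactor of Stat6 in IL-4 signalling. The gene (ENSMUSG00000034422.14, chr16:35832874-35871544, minus strand) had 11231 reads, 358 CPM (351 to 364) and 99.9 TPM, 3.51 times *Parp1* (3.34 to 3.69). *Parp14* took more reads than *Parp10*, but its exons add up to 9306 bases against 4275, and per exon length *Parp10* was 2.04 times *Parp14* (1.99 to 2.09).

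*Parp11* was the lowest of the 6 by union exon length and by principal transcript, but not by coding length, where it stood above *Parp10* and *Parp14*. It encodes a mono-ADP-ribosyltransferase known to be located at nuclear pores. The gene (ENSMUSG00000037997.12, chr6:127446840-127494261, plus strand) had 4602 reads, 147 CPM (142 to 151) and 54.2 TPM, 1.90 times *Parp1* (1.80 to 2.01). Its distance from *Parp1* depended on the length more than that of any other member, at 2.61 times per principal transcript and 7.74 times per coding length. The annotation gives *Parp11* 10 transcripts, 5 of them with a retained intron, and exons of 7026 bases around a coding length of only 993 bases. *Parp11* took 5.41% of the reads of the 6 genes.

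**Figure D2:**
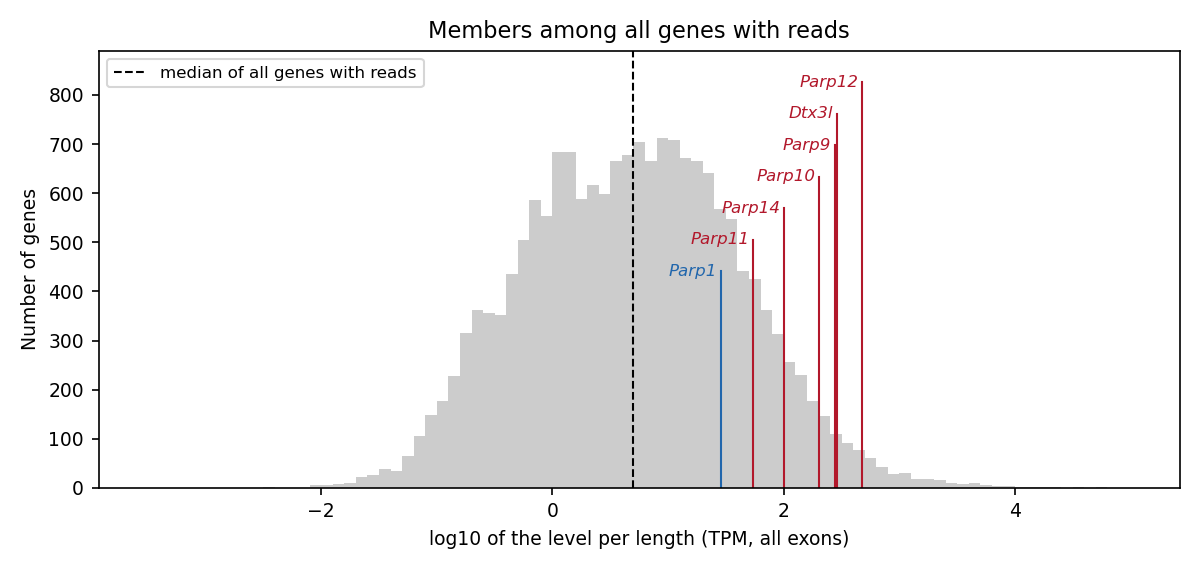
Histogram of log10 TPM over the 17632 genes with reads and an exon length in A/A replicate 1, with a line at each of the 7 genes and a dashed line at the median of all genes. The 7 genes lie to the right of the median of 4.94 TPM, from *Parp1* at 28.5 TPM to *Parp12* at 471 TPM.

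A gene's start region is where an IFN response can be written in sequence, so the RefSeq windows from 250 bases before to 50 bases after each start (GRCm38.p6) were read for 2 motifs, on both strands. These were the ISRE, spelled TTTC, then any 2 bases, then TTTC, and the GAS element known from IFN-γ-responsive promoters, spelled TTC, then any 3 bases, then GAA. *Parp1*, *Parp11*, *Parp12* and *Dtx3l* had an entry, with 5 windows in all, and *Parp9*, *Parp10* and *Parp14* had none. Of all 32851 windows, 3.44% held the ISRE letters and 8.30% the GAS letters. For scale, the ISRE letters were in 10 of 18 windows (55.6%) of the interferon-stimulated genes listed further on, and in none of 9 windows of the housekeeping genes. One window of the 4 genes held a match, the first start of *Parp11*. Its ISRE lay 44 bases and its GAS letters 37 bases before the start, overlapping by 3 bases. The transcript that starts there is not the principal one of *Parp11*. The second *Parp11* window, nearer the start of the principal transcript, held no match. The first *Parp11* window is shown for its match, with both motifs in capitals. Beside it are parts of windows without a match for the highest gene, the reference and the *Dtx3l* side of the *Dtx3l*–*Parp9* start region. The bases lie before the gene's own annotated transcripts, on its own strand. They are the longest stretch of the 250 bases before each start outside annotated untranslated regions. For *Dtx3l* this left 71 bases, which lie within *Parp9*. Part of the *Parp12* bases lies within *4930599N23Rik*, a gene on the other strand.
*Parp11* chr6:127446590-127446839, plus strand: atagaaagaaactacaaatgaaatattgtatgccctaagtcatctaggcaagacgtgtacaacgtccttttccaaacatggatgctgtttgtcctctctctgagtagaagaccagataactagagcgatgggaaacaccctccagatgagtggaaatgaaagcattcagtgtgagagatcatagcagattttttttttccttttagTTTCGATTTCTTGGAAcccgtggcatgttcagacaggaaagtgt
*Parp12* chr6:39118350-39118599, minus strand: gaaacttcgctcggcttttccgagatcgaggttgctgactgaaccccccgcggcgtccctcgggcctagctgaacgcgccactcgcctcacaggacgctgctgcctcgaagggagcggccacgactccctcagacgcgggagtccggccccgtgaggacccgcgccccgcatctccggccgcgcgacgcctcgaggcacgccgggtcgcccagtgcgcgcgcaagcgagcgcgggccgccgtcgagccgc
*Parp1* chr1:180568641-180568890, plus strand: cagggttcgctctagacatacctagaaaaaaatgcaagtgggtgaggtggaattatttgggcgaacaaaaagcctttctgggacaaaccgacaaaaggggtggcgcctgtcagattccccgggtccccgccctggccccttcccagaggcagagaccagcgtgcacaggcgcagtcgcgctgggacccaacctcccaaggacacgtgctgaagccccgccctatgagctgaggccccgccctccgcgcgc
*Dtx3l* chr16:35939207-35939277, minus strand: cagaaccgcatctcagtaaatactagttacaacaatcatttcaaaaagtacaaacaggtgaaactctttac

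The windows also differed in base composition. *Parp12* had 73.7% G and C with 46 CpG, at the 95.1 and 98.5 percentiles of all windows, whose medians were 52.7% and 7. The motif-bearing *Parp11* window was at the other side, with 42.0% G and C and 5 CpG, while the second *Parp11* start had 59.0% and 25. *Dtx3l* had 54.3% and 17, and *Parp1* had 62.0% and 20. A match is a description of letters, and no binding was measured.

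*Parp14*, *Dtx3l* and *Parp9* are neighbours on chromosome 16, within 140 kb, and together they took 47262 reads, 55.5% of those of the 6 genes. *Dtx3l* and *Parp9* run in opposite directions from a shared start region, and the genes overlap by 682 bases. The *Dtx3l* window holds the starts of 4 of the 7 annotated *Parp9* transcripts and of both *Dtx3l* transcripts. The principal *Parp9* transcript is not among the 4 and starts outside the window. *Parp14* starts 54967 bases beyond the 3′ end of *Dtx3l* on the same strand. In TPM *Parp14* was 0.364 times *Parp9*, so the 3 neighbours were not at a common level.

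**Figure D3:**
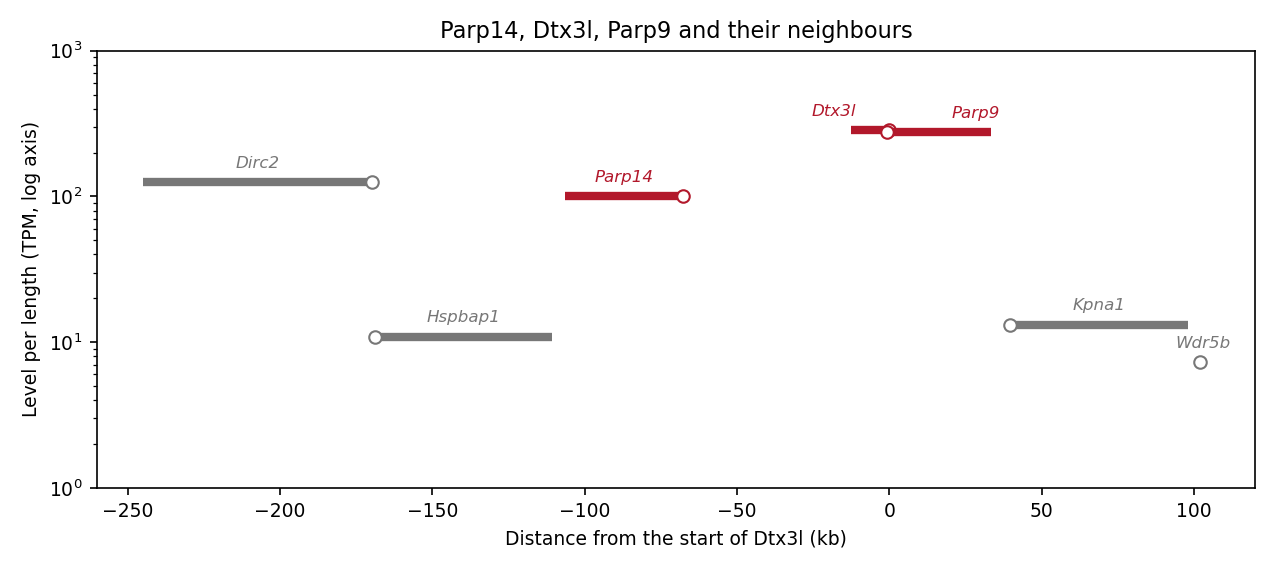
Level per length (TPM by union exon length, log axis) of the genes on chromosome 16 around the start of *Dtx3l* in A/A replicate 1, with genes of 3 reads or fewer left out, each bar spanning the gene and the open circle marking its start. *Dtx3l*, *Parp9* and *Parp14* (red) lie at 287, 275 and 99.9 TPM, their nearest plotted neighbours *Hspbap1* and *Kpna1* at 10.9 and 13.2 TPM, and *Dirc2* further out at 126 TPM.

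The nearest genes with over 3 reads on either side were lower. *Kpna1*, an importin gene next to *Parp9*, was at 13.2 TPM, and *Parp9* was 20.8 times this level per exon length. *Hspbap1*, next to *Parp14*, was at 10.9 TPM. *Parp14* was 9.15 times *Hspbap1* per union exon length but only 2.07 times per principal transcript, so this difference rests largely on the length used. High expression was not limited to the 3 genes: *Dirc2*, further out and chosen after its value was seen, was at 126 TPM, above *Parp14* by union exon length, while per principal transcript the ratio of *Parp14* to *Dirc2* was 0.998 (0.970 to 1.03). Over all members, 23 genes lay within 50000 bases of one. Of these, 15 had reads and 8 were at 0. In TPM by union exon length, 2 of them were above *Parp11*. *Grina*, which starts 3366 bases from *Parp10* and runs away from it, was at 693 TPM, above all 7 genes. *4930599N23Rik* starts 124 bases from *Parp12* on the other strand and was at 68.9 TPM, while *Parp12* was 6.84 times that level. Both were named after their values were seen.

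Reads from exon bases shared by genes on opposite strands cannot be assigned without strand. Those from bases shared on the same strand cannot be told apart by strand. Whether strand was used is not given in the sources used here. *Parp9* and *Dtx3l*, on opposite strands, share 458 exon bases, 9.40% of the exons of *Parp9* and 8.0% of those of *Dtx3l*. *Parp10* shares 205 bases, 4.80% of its exons, with *Plec* on the same strand, which was at 41.3 CPM. *Parp14* shares 1.18% of its exons with *Gm49730*, and *Parp1* 0.132% with *Mir6904*, both also on the same strand. These overlaps are small beside the ratios to *Parp1*. They are not small beside the difference between *Parp9* and *Dtx3l*, whose ratio was 0.957 by all exon bases and 0.971 by the bases free of other genes.

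The other 10 PARP genes, those outside the chosen set, all had reads, and most were far lower than the interferon-inducible PARPs of the set. This split follows the chosen set, and whether any of the other 10 genes is interferon-inducible was not tested. The medians were 21.2 TPM for the other 10 genes and 204 TPM for the 5 interferon-inducible PARPs. *Zc3hav1*, the antiviral protein ZAP that binds viral RNA, was the highest of the other 10 at 153 TPM. It was 1.53 times *Parp14* per exon length (1.49 to 1.57), and no other PARP exceeded *Parp14* by union exon length. *Parp3*, a DNA-break PARP, was at 84.3 TPM and *Tiparp*, a target of the aryl hydrocarbon receptor, at 70.0 TPM. Both were above *Parp11* on this scale, but per principal transcript *Tiparp* was below it, at 59.3 TPM against 82.9 TPM. *Parp8* was at 44.9 TPM, below *Parp11*, but per principal transcript the order turned and *Parp11* was 0.756 times *Parp8*, which then also stood above *Parp14* at 110 TPM against 102 TPM.

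Below *Parp1* by union exon length came the remaining 6 PARP genes. *Parp2*, which works beside *Parp1* in DNA repair, was at 24.7 TPM by union exon length and at 38.6 TPM per principal transcript, where *Parp1* was at 31.7 TPM. The tankyrase genes *Tnks2* and *Tnks*, regulators of Wnt signalling, were at 17.6 and 8.16 TPM, and *Parp4*, the PARP of vault particles, at 10.7 TPM. *Parp6* was at 1.45 TPM. *Parp16*, a PARP of the endoplasmic reticulum, had 8 reads, 0.255 CPM (0.129 to 0.503) and 0.170 TPM. Of the 97118 reads on all 16 PARP genes, 67.2% lay on the 5 interferon-inducible PARPs of the chosen set and 23.4% on *Parp12* alone. *Parp1* ranked 10 of 16 in TPM.

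**Figure D4:**
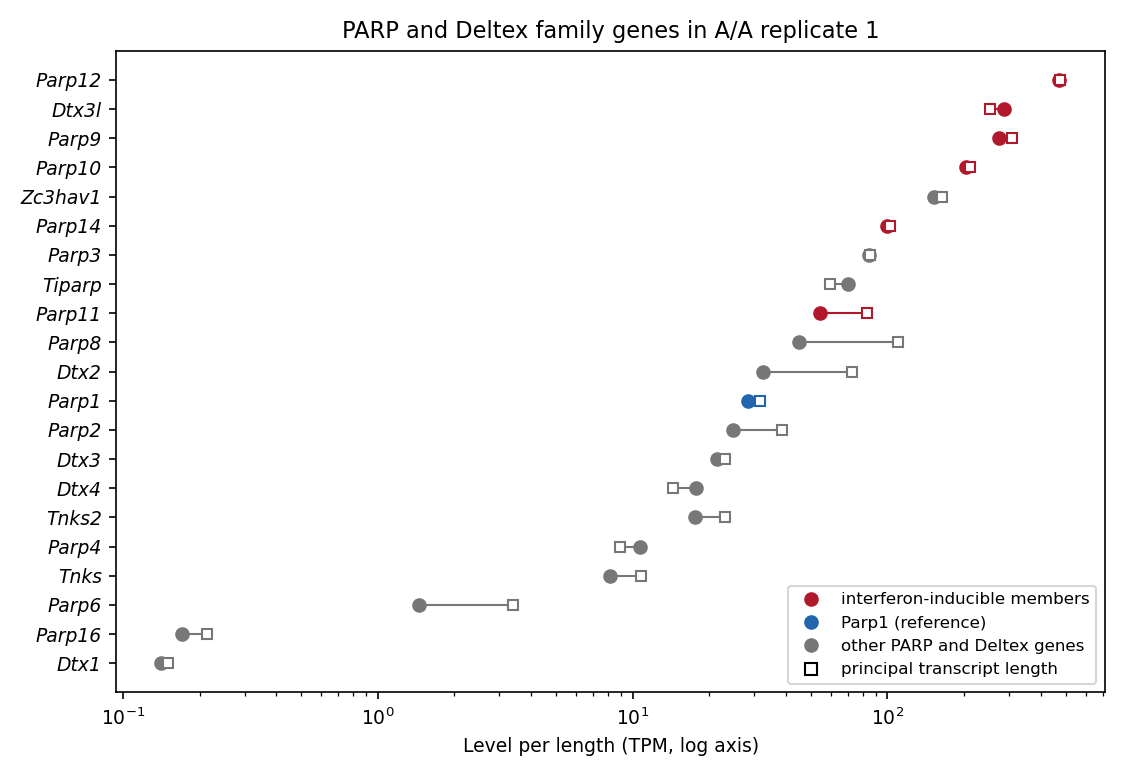
Level per length (TPM by union exon length, log axis) of the 16 PARP genes and the 5 Deltex genes in A/A replicate 1, with open squares for the principal transcript length, the interferon-inducible members in red, *Parp1* in blue and the other genes in grey. *Parp12* at 471 TPM leads the PARP genes, and *Dtx3l* at 287 TPM lies above the other 4 Deltex genes, which are at 32.4 TPM or below by union exon length.

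*Dtx3l* was the highest of the 5 Deltex genes on each scale used. *Dtx2* followed at 32.4 TPM by union exon length (72.4 TPM per principal transcript, where *Dtx3l* was at 252 TPM), *Dtx3* at 21.4 TPM and *Dtx4* at 17.7 TPM. *Dtx1*, known as a Notch target in lymphocytes, had only 9 reads, 0.141 TPM.

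The genes that read or remove ADP-ribose had a median of 16.8 TPM over the 11 of 12 with reads, and *Adprhl1* was at 0. The highest was *H2afy*, which encodes the macrodomain histone macroH2A, at 149 TPM by union exon length but 403 TPM per principal transcript. On the first scale it lay between *Parp14* and *Parp10*, and on the second between *Parp9* and *Parp12*. *Hpf1*, the cofactor that directs Parp1 to serine, was at 24.5 TPM by union exon length and at 77.2 TPM per principal transcript, below *Parp1* on the first scale and above it on the second. *Parg*, which cuts poly(ADP-ribose) chains, was at 16.8 TPM. *Macrod2*, a macrodomain hydrolase, was the lowest with reads at 0.257 TPM.

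The 6 interferon-inducible members lay within the pooled range of the IFN signalling and interferon-stimulated genes, and *Parp1* lay below it. The 7 signalling genes all had reads, with a median of 246 TPM, and the lowest was *Jak1* at 72.0 TPM. *Parp11*, at 54.2 TPM, was the only one of the 6 members below all 7 signalling genes. The 22 interferon-stimulated genes all had reads, with a median of 602 TPM, from *Eif2ak2* (PKR, a kinase that senses double-stranded RNA) at 52.3 TPM to *Bst2* (tetherin, which is also a pDC sorting marker) at 4774 TPM. By union exon length, 12 of these 22 genes were above *Parp12*, 15 above *Dtx3l*, 15 above *Parp9*, 18 above *Parp10*, 21 above *Parp14* and 21 above *Parp11*. Per principal transcript the counts were 14, 17, 17, 18, 21 and 21, in the same order. Without an unstimulated library, none of these levels can be read as induced.

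**Figure D5:**
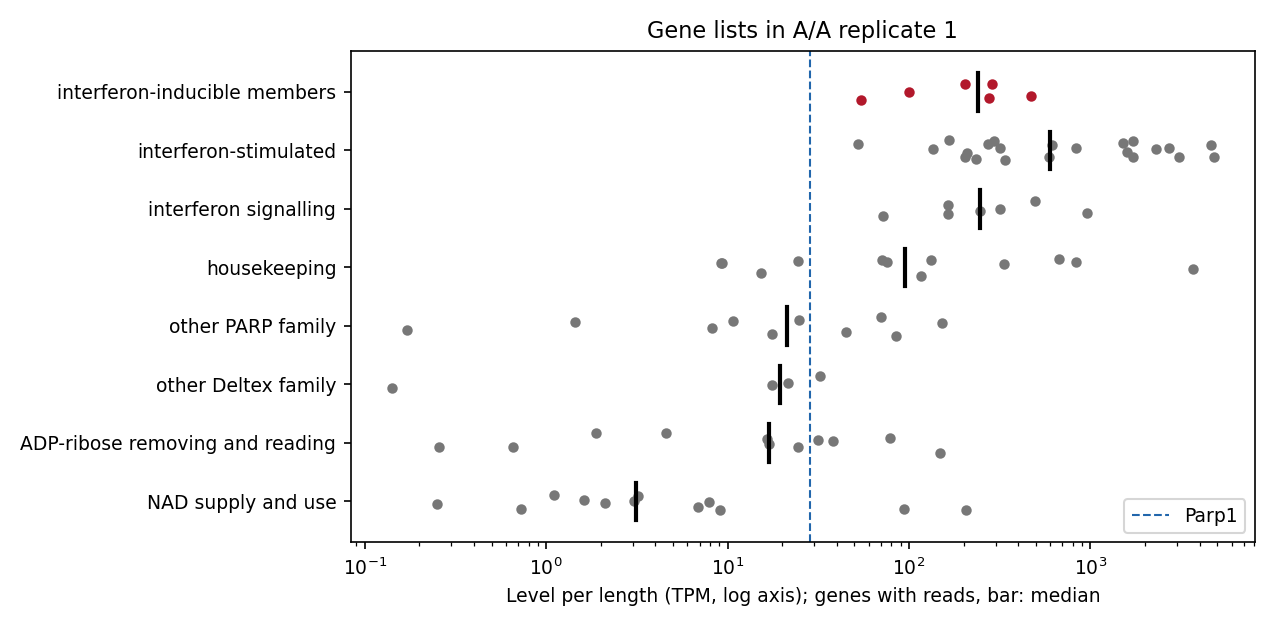
Level per length (TPM by union exon length, log axis) of each gene with reads in the lists of interferon-inducible members, other PARPs, Deltex, ADP-ribose, NAD, IFN signalling, interferon-stimulated and housekeeping genes in A/A replicate 1, with a bar at each list's median over these genes and a dashed line at *Parp1*. The median of the 6 members, 239 TPM, lies near that of the IFN signalling genes, 246 TPM, and below that of the interferon-stimulated genes, 602 TPM.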

How the data were processed

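The libraries were mRNA-Seq of splenic pDCs. The values the authors deposited for A/A replicate 1 are a normalized signal per gene with no stated unit: 100% of those above 0 were within 0.001 of whole multiples of 1.19, and dividing by this step recovered the reads. The submitters' processing notes name HISAT2, StringTie, mm8 and mm10. The counting tool, the use of strand and the annotation are not given in the sources used here. The comparison of genotypes with DESeq2 that the methods describe was not run.

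Of the identifiers, 99.7% matched GENCODE M21 (GRCm38), and 95.2% of these, including all 7 members, had identical coordinates. CPM was reads over the column total times 1000000, with Wilson intervals. A gene with any reads counted as detected. The floor of 3 reads (0.0955 CPM) served only to leave out genes around *Dtx3l* on chromosome 16. TPM used the union of a gene's exons. Alternatives were coding length, principal transcript length (added after seeing the data), another total and other backgrounds for percentiles. Promoter motifs were also chosen after seeing the data.

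Named were the members, the other PARPs, the highest, lowest and undetected genes of each list, and overlapping genes. Some of these are not reported here. A few further list genes, *Dirc2*, *Grina* and *4930599N23Rik* were chosen after their values were seen. Members and lists were chosen with earlier results of these data known. Python 3.11.15, numpy 2.4.6, scipy 1.17.1, pandas 2.3.3 and matplotlib 3.10.9 were used, and the scripts were tested on simulated data.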

Additional observations from a re-analysis of the deposited data

How the results depend on the processing

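All 6 interferon-inducible members were above *Parp1* in CPM, per union exon, per coding length, per principal transcript and when intervals had to be separate. Their median level of 436 CPM was 239 TPM by union exon and 232 TPM by principal transcript. Leaving out *Parp9*, *Parp12* or *Dtx3l* gave 358 CPM, and leaving out *Parp10*, *Parp11* or *Parp14* gave 515 CPM. The *Parp9* to *Dtx3l* ratio was 0.814 in reads, 0.957 per union exon, 0.971 per exon base free of other genes, 0.734 per coding length (added after seeing the data) and 1.22 per principal transcript, so its direction depended on the length. Levels per length are on another scale than CPM by construction. A total without the 10 genes with the most reads raised the 7 levels by 6.26 to 78.1 CPM, and a pseudocount of 0.1 moved none of the 7 log2 levels beyond counting error. Percentiles rose by 0.772 to 11.1 points over all listed genes. They changed by -3.73 to -0.260 points over genes with at least 10 reads, by -6.87 to -0.431 over protein-coding genes and by -6.19 to -0.410 per kilobase. No paired analysis was possible because a single library was read, and for the same reason leaving out replicates was not possible. Depth limited only the lowest relatives, such as *Parp16* with 8 reads.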

Other observations

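The genes that make and use NAD+, the substrate of the PARP enzymes, were lower in general than the interferon-inducible members. Of 15 genes, 12 had reads, with a median of 3.13 TPM, and *Nmnat2*, *Nmrk2* and *Nnmt* were at 0. *Nampt*, the rate-limiting enzyme of the NAD+ salvage route, was the highest at 206 TPM, near *Parp10* at 204 TPM. *Sarm1*, an NAD+-cleaving enzyme known from axons, was the lowest with reads at 0.250 TPM.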
